A study of Mus musculus with 5 samples.

Results

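Enterocytes with high Fabp1 and Apoa4 transcripts were examined in single-cell RNA profiles of the mouse ileal epithelium. They were defined as cells in which Fabp1 and Apoa4 together made up at least 0.5% of all unique molecular identifiers (UMIs, each 1 captured transcript), with at least 1 UMI of each gene. Cells in which Lyz1 and the Defa genes, which mark Paneth cells, reached 10% of UMIs were left out. The rule selected 3953 of the 18955 cells in which 500 or more genes were detected and mitochondrial UMIs did not exceed 20%. Because the cells were chosen on Fabp1 and Apoa4, the levels of these genes and the share of such cells are descriptions and were not tested.

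The cells came from the ileum of C57BL/6 mice aged 8 to 12 weeks that had undergone small bowel resection, in which a length of the small intestine is removed, or a sham operation. No genetic modification is labelled in either group. There were 3 sham libraries and 2 resection libraries, and the labels do not say whether a library held 1 mouse or several, how long after surgery the tissue was taken, or what length of intestine was removed. Depth per library ranged from 11749028 to 41281731 UMIs. The median kept cell held 13.3% mitochondrial UMIs in sham 1 and 11.6% in resection 1, against 8.49%, 7.23% and 9.13% in sham 2, sham 3 and resection 2. The former are called set A and the latter set B, and differences are also given within each set. Of all barcodes, 197 occurred in more than 1 library, and 85 of the selected cells carried one of these.

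Fabp1, the liver-type fatty acid binding protein, carries long-chain fatty acids through the cytosol of enterocytes, and Apoa4 is an apolipoprotein of the chylomicrons in which absorbed fat is exported. Both are expressed most strongly in the duodenum and jejunum. The ileum instead expresses Fabp6, a bile acid binding protein, with the transporters Slc10a2, Slc51a and Slc51b that recover bile acids. Enterocytes also change as they move up the villus, and genes such as Ada are highest near the tip.

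The sequences around the annotated starts of Fabp1, Apoa4 and Fabp6 are shown because the first 2 define the cells and the third is the ileal gene measured against them. Each runs 5′ to 3′ on the strand of the gene, from 250 bases before to 50 bases after the RefSeq start (GRCm38.p6), at chr6:71199629-71199928 on the plus strand, chr9:46240594-46240893 on the plus strand and chr11:43601513-43601812 on the minus strand. Capitals mark matches on either strand to TATAAA, the TATA box, to TTTATG, a caudal-type homeobox motif, and to AGGTCA, a nuclear receptor motif.
Fabp1: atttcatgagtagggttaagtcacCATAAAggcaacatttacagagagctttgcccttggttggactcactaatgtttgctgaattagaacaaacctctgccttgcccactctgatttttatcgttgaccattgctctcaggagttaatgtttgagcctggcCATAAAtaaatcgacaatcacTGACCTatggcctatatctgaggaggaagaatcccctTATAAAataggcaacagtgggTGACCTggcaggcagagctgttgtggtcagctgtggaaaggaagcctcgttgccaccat
Apoa4: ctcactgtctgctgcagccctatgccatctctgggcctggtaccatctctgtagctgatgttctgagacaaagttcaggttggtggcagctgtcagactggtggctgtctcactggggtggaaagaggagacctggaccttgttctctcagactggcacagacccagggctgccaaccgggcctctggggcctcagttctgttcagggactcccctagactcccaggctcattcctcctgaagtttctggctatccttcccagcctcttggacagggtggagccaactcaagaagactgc
Fabp6: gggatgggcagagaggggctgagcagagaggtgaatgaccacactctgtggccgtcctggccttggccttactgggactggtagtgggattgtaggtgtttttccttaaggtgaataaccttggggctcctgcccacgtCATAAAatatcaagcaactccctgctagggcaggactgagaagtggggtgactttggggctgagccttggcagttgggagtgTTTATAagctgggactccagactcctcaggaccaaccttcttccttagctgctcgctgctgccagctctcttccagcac
The Fabp1 window held 1 TATAAA, 2 TTTATG and 2 AGGTCA matches. The Fabp6 window held 1 TATAAA and 1 TTTATG match, and no match lay in the Apoa4 window. Of 32851 promoter windows of this length, 13.6% held TATAAA, 11.9% TTTATG and 16.3% AGGTCA. A match describes letters only, and binding was not measured.

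Fabp1/Apoa4-high cells were rare in sham ileum and common after resection. They numbered 24, 171 and 34 in sham 1 to 3, and 1612 and 2112 in resection 1 and 2. Their share of kept cells was 1.85% in sham 1 (exact Clopper-Pearson 95% interval 1.19 to 2.74), 4.37% in sham 2 (3.75 to 5.06) and 1.19% in sham 3 (0.828 to 1.66). It was 42.5% in resection 1 (40.9 to 44.1) and 29.7% in resection 2 (28.7 to 30.8). The groups did not overlap, with means of 2.47% ± 1.68 (SD, n = 3) and 36.1% ± 9.04 (SD, n = 2). The difference was 40.7 percentage points within set A and 26.9 within set B. These intervals cover counting error only.

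The share was also calculated among enterocytes alone. The comparison class, called other enterocytes, comprised 8542 kept cells outside the rule and below the same Paneth limit in which 9 general enterocyte genes (among them Fabp2, Alpi, Vil1 and Sis) made up at least 1% of UMIs. Fabp1/Apoa4-high cells were 4.29%, 6.79% and 2.50% of enterocytes in sham 1 to 3, and 60.6% and 39.1% in resection 1 and 2. The ordering of the libraries was the same as among all kept cells, and resection 1 lay above resection 2 on both denominators.

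**Figure D1:**
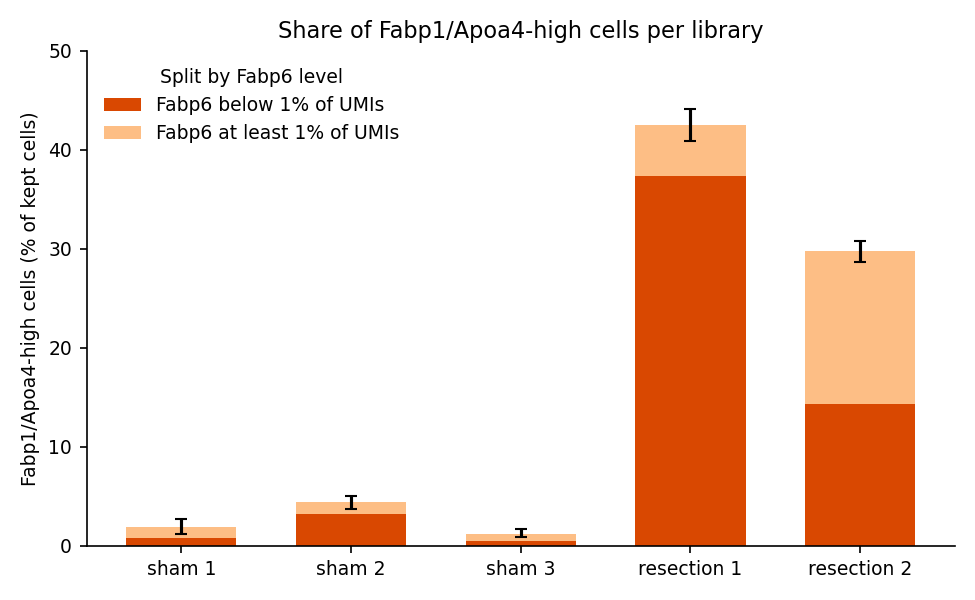
Share of Fabp1/Apoa4-high cells in each library in percent of kept cells, as bars stacked by whether Fabp6 was below or at least 1% of UMIs, with the exact 95% binomial interval of the total as black error bars. The 3 sham libraries lie between 1.19% and 4.37% of kept cells, and the resection libraries at 42.5% and 29.7%.

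Fabp1 and Apoa4 RNA was also higher in cells that should lack it after resection. In Paneth cells, chosen by Lyz1 and Defa genes at 10% of UMIs or more, the median sum of Fabp1 and Apoa4 was 0.0172%, 0.0179% and 0.00835% of UMIs in sham 1 to 3, and 0.0840% and 0.104% in resection 1 and 2. The number of Paneth cells that met the 2 gene thresholds was 0 of 229, 1 of 282 and 0 of 133 in sham, and 2 of 183 (1.09%) and 27 of 331 (8.16%) in resection. Their median depth was 16254, 10170, 8540, 19269 and 6169 UMIs in the order sham 1 to resection 2, against 4791, 3110, 4864, 5126 and 4157 in the Fabp1/Apoa4-high cells. Droplets with at least 4 T cell genes met the thresholds in 0 of 45, 2 of 127 and 1 of 42 cases in sham, and in 16 of 35 (45.7%) and 78 of 255 (30.6%) in resection. These T cell-marked droplets held a median of 2.36% and 3.48% enterocyte-list UMIs in resection 1 and 2, above the 1% that defines the comparison class. Goblet-marked droplets, with goblet genes at 5% of UMIs or more, met the thresholds in 0 of 15, 10 of 96 (10.4%) and 0 of 44 cases in sham, and in 19 of 29 (65.5%) and 23 of 77 (29.9%) in resection. In the resection libraries the share in these marked droplets was thus close to or above that of all kept cells. In sham it was below it except for the T cell-marked droplets of sham 3 and the goblet-marked droplets of sham 2, and the part of free or mixed RNA in the share was not tested. With both kinds of droplet taken out of the selected cells but not out of all kept cells, the difference was 32.6 percentage points, against 33.6. Among enterocytes they could be taken out of both classes. The share there was then 4.48%, 6.67% and 2.50% in sham 1 to 3, and 60.5% and 39.1% in resection 1 and 2. This step does not measure free RNA in the remaining cells.

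The distribution of the combined level differed in height as well as in the number of cells past the threshold. The median sum of Fabp1 and Apoa4 among the selected cells was 0.821%, 0.912% and 0.705% of UMIs in sham 1 to 3, and 1.62% and 1.11% in resection 1 and 2. The highest selected cell reached 5.39% in sham and 12.7% in resection. In other enterocytes, which by definition lay mostly below the threshold, the median was 0.0396%, 0.0356% and 0.0355% in sham and 0.241% and 0.147% in resection. Both resection libraries therefore lay above all 3 sham libraries on either side of the threshold. Just inside it, between 0.5% and 0.6%, were 2, 37 and 10 sham cells and 139 and 267 resection cells. Just outside, between 0.4% and 0.5%, were 7, 53 and 23 sham cells and 185 and 315 resection cells. A further 4, 20, 21, 1 and 24 cells in the order sham 1 to resection 2 passed the sum but lacked 1 of the 2 genes.

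**Figure D2:**
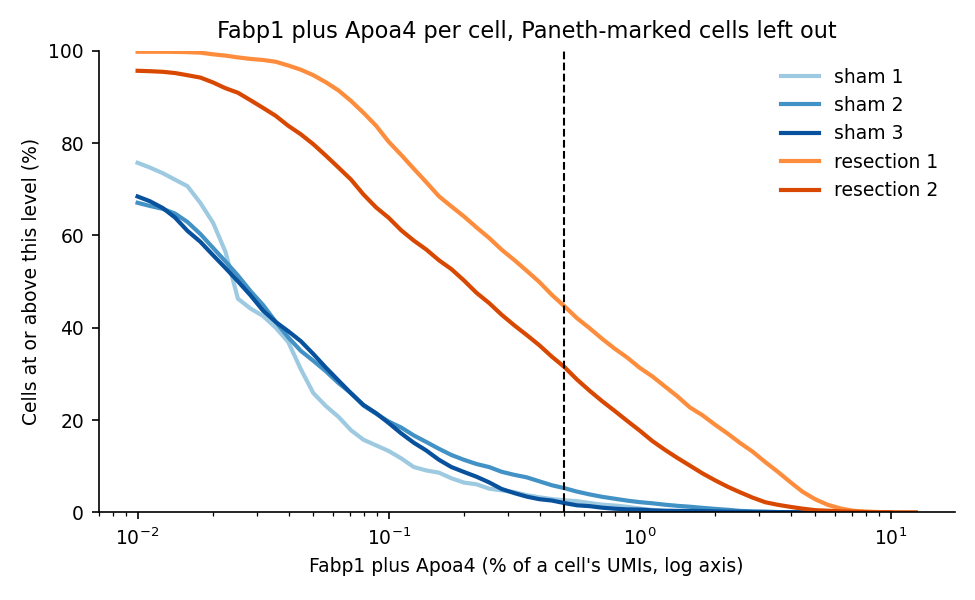
Percent of kept cells, without Paneth-marked cells, at or above each level of summed Fabp1 and Apoa4 (percent of a cell's UMIs, log axis), 1 curve per library, with the 0.5% threshold as a dashed line. The resection curves lie above all 3 sham curves over the range where cells occur, and resection 1 lies above resection 2 up to 10% of UMIs.

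The 2 defining genes did not contribute alike. Apoa4 was the larger component in most cells, with a median of 0.786%, 0.611% and 0.407% of UMIs in sham 1 to 3, and 0.957% and 0.618% in resection 1 and 2. Median Fabp1 was 0.0722%, 0.249% and 0.314% in sham and 0.631% and 0.456% in resection. Fabp1 exceeded Apoa4 in 8.33%, 24.6% and 44.1% of the selected sham cells and in 34.2% and 38.5% of the resection cells. Spearman's rho between the 2 genes over selected cells was −0.28, −0.41, −0.68, 0.35 and −0.10 in the order sham 1 to resection 2. The sum threshold itself shapes this relation, which is given as a description over cells that share a library.

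The label of proximal enterocytes was compared with the genes of the cells. The enterocyte list made up a median of 2.92%, 6.54% and 8.15% of UMIs in the selected sham cells and 4.45% and 9.91% in the resection cells, above that of other enterocytes in each library, where the medians were 1.72% to 3.32%. Only 27 selected cells, all in resection 1, were under 1%. Of the other proximal markers, Apoc3, Rbp2 and Lct were higher in the Fabp1/Apoa4-high cells than in other enterocytes in all 5 libraries. Slc2a2, the basolateral hexose transporter GLUT2, was higher in 4 of 5, and had no UMI in the 24 selected cells of sham 1. The cells were not free of ileal transcripts, as the following measurement of Fabp6 shows.

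Many Fabp1/Apoa4-high cells also carried Fabp6. The share with Fabp6 at 1% of UMIs or more was 58.3%, 25.7% and 61.8% in sham 1 to 3, and 12.0% and 51.9% in the resection libraries. The exact 95% intervals were wide in sham 1 (36.6 to 77.9) and sham 3 (43.6 to 77.8), and narrow in resection 1 (10.5 to 13.7) and resection 2 (49.7 to 54.0). The groups overlapped, with means of 48.6% ± 19.9 (SD, n = 3) and 32.0% ± 28.2 (SD, n = 2), and an exact two-sided permutation test over libraries gave p = 0.5, where the smallest possible p was 0.1. The difference was −46.3 percentage points within set A against 8.15 within set B, so the sets moved in opposite directions. Without resection 1 the difference was 3.28 percentage points, against −16.6 with all libraries. T cell-marked droplets held Fabp6 at 1% or more in 57.8%, 62.2%, 57.1%, 5.71% and 54.9% of cases, in the order sham 1 to resection 2. In goblet-marked droplets the share was 46.7%, 51.0%, 50%, 6.90% and 44.2%, and in Paneth cells 2.62%, 10.6%, 10.5%, 0.546% and 12.4%. The part of free or mixed RNA in the Fabp6-high share was not tested.

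Within every library, Fabp6 was less frequent in Fabp1/Apoa4-high cells than in other enterocytes. In other enterocytes the share with Fabp6 at 1% or more was 93.6%, 85.2% and 95.8% in sham 1 to 3, and 47.6% and 79.2% in resection 1 and 2. Median Fabp6 was 1.33%, 0.494%, 1.39%, 0.0991% and 1.06% of UMIs in the Fabp1/Apoa4-high cells, in the order sham 1 to resection 2. In other enterocytes it was 3.22%, 2.32%, 4.47%, 0.935% and 2.15%. Fabp6 therefore separated the classes in the same direction in sham and resection tissue. It also separated the resection libraries, since resection 1 was the lowest of the 5 in both classes. The number of selected cells close to the Fabp6 threshold, between 0.8% and 1.2%, was 3, 24, 4, 125 and 319.

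As a share of all kept cells, those with both signals made up 1.08%, 1.12% and 0.737% in sham 1 to 3, and 5.12% and 15.4% in resection 1 and 2. Cells with the Fabp1/Apoa4 signal alone made up 0.772%, 3.24% and 0.456% in sham, and 37.4% and 14.3% in resection. Cells with Fabp6 alone made up 60.2%, 64.3% and 64.9% in sham, and 14.3% and 40.0% in resection. In resection 2 the double-positive and the Fabp6-low cells were thus about equally frequent, whereas in resection 1 the Fabp6-low cells outnumbered the double-positive ones.

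The share of Fabp6-high cells was lower at higher Fabp1 and Apoa4. Below a combined level of 0.1%, 95.3%, 91.2% and 97.4% of enterocytes were Fabp6-high in sham 1 to 3, and 53.6% and 82.7% in resection 1 and 2. Between 0.5% and 1% the share was 78.9%, 32.7% and 80.0% in sham, and 24.9% and 70.6% in resection. Between 2% and 4% it was 11.1% in sham 2, 5.11% in resection 1 and 23.5% in resection 2, with too few cells in the other libraries to give a precise value. At 4% or more it was 0.426% in resection 1 and 6.25% in resection 2. Spearman's rho between the combined level and Fabp6 over selected cells was −0.36, −0.18, −0.53, −0.51 and −0.45. These are descriptions, and because values are shares of each cell's UMIs, a gain of one gene lowers the share of the others slightly.

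**Figure D3:**
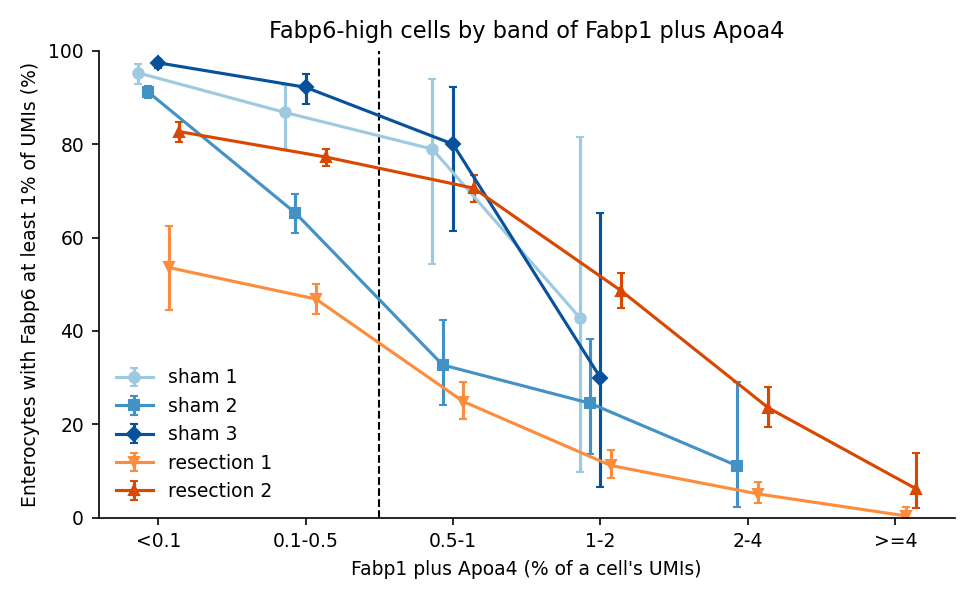
Percent of enterocytes with Fabp6 at 1% of UMIs or more, by band of the summed Fabp1 and Apoa4 share, for bands with at least 5 cells and with exact 95% binomial intervals. The dashed line marks the 0.5% threshold, and in each library the share is lowest in the highest band shown, from 53.6% to 0.426% in resection 1 and from 82.7% to 6.25% in resection 2.

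Fabp1/Apoa4-high cells were then compared with other enterocytes of the same library, as the log2 ratio of CPM (UMIs scaled to a total of 1000000) after adding 10 CPM. This comparison carries no test, since both classes were split from the same cells. Of 1249 genes with a mean of at least 100 CPM over both classes, which a gene can reach through the class where it is high, 239 (19.1%) were higher in all 5 libraries and 316 (25.3%) were lower in all 5. Of 12 measured genes in the list of proximal genes, other than the defining ones, 10 were higher in all 5 libraries and 0 were lower, with a median ratio of 1.10 against −0.05 over all genes.

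Among genes of lipid handling, 10 of 17 were higher in all 5 libraries and 0 were lower. Apoc3, an apolipoprotein that limits lipoprotein lipase, had 1358, 1862, 1325, 2525 and 3111 CPM in the selected cells of sham 1, 2, 3 and resection 1 and 2. Its log2 ratio over other enterocytes was 2.35, 2.51, 2.50, 1.57 and 2.36. Apob, the structural protein of chylomicrons, had ratios of 0.84, 1.17, 1.44, 0.86 and 1.18, and Creb3l3, a transcription factor of lipid metabolism, had 1.31, 1.81, 2.12, 0.85 and 1.52. Apoa1 was among the most abundant transcripts, at 27768 to 44970 CPM, with ratios of 0.65 to 1.36. The enzymes that rebuild triglycerides differed among themselves. Mogat2 and Dgat1 lay near 0, at −0.12 to 0.25 and −0.10 to 0.23, whereas Dgat2 was higher in all 5 libraries, with ratios of 1.35, 0.75, 0.90, 0.57 and 0.58.

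Rbp2, which binds retinol in the enterocyte, had 3148, 8234 and 6816 CPM in sham 1 to 3, and 7099 and 7204 in resection 1 and 2. Its ratios over other enterocytes were 2.20, 2.41, 2.69, 2.11 and 2.11. Lct, the brush border lactase, had ratios of 1.74, 2.23, 2.66, 1.78 and 1.63. Leap2, a secreted peptide hormone, had 2.00, 1.16, 2.15, 1.53 and 1.80. All of these were higher in the selected cells of every library. Not every proximal gene followed, since Slc2a5, the fructose transporter GLUT5, had ratios of −0.57, −0.49, −0.23, −0.22 and 0.17.

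Several genes of the villus tip were higher in Fabp1/Apoa4-high cells. Of the 8 listed, 4 reached a mean of 100 CPM, and Ada did so only through the selected cells. Ada, adenosine deaminase, had 470, 186 and 208 CPM in sham and 115 and 280 after resection, while other enterocytes had 27.2, 6.34 and 5.08 CPM, and after resection 19.4 and 26.1. Its ratios were 3.69, 3.58, 3.86, 2.09 and 3.01, with the highest median among the genes named by rule for this comparison. Klf4 and Krt20, a transcription factor and a keratin of mature epithelium, had ratios of 0.69 to 1.49 and 0.38 to 0.81, and Pmp22 had 0.55 to 2.22. Of the listed genes with lower levels, Slc28a2 had ratios of 0.81 to 3.07 and Nt5e of 0.35 to 0.83, while Enpp3 (−0.01 to 1.88) and Egfr (−0.65 to 0.52) differed in sign between libraries. Of the 10 genes of the lower villus list, 5 reached a mean of 100 CPM. All 5 were lower in every library, against 25.3% of all genes, with a median ratio of −0.83. Other genes at the top of the comparison were Clca4a, with ratios of 1.20 to 3.31, 2010109I03Rik, with 1.48 to 4.71, Dnase1, with 1.30 to 2.12, Bst1, with 1.02 to 1.80, and Sectm1b, with 1.04 to 1.98.

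The share of villus tip UMIs was therefore followed in every enterocyte, in bands chosen after the values were seen. The villus tip list made up 0.275%, 0.301% and 0.367% of UMIs in the selected cells of sham 1 to 3. In those of resection 1 and 2 it made up 0.172% and 0.207%. A band is thus a level of tip transcripts and need not mark the same position on the villus in both groups. Below 0.05% of UMIs, Fabp1/Apoa4-high cells were 0%, 0.592% and 0% of enterocytes in sham 1 to 3, and 44.6% and 16.6% in resection 1 and 2. At 0.15% or more they were 11.5%, 12.4% and 4.69% in sham, and 73.8% and 61.8% in resection. The share of Fabp1/Apoa4-high cells was higher at high tip levels in each library, and the resection libraries exceeded every sham library in each band.

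Fabp6, Slc10a2 and Slc51a of bile acid recovery were lower in Fabp1/Apoa4-high cells, while some other distal genes were higher. Fabp6 had 17566, 9575 and 16861 CPM in sham 1 to 3, and 3797 and 13415 in resection 1 and 2, with ratios of −0.92, −1.45, −1.39, −1.61 and −0.79. Slc10a2, the apical bile acid transporter, had ratios of −0.92, −0.64, −0.28, −1.21 and −0.70, and Slc51a, a subunit of the basolateral exporter, had −0.45, −0.59, −0.54, −0.85 and −0.42. By contrast Slc34a2, a phosphate transporter, had ratios of 0.72, 0.81, 0.94, 0.85 and 0.81, and Cubn, part of the receptor for vitamin B12 with intrinsic factor, had 0.32, 0.21, 0.74, 0.11 and 1.02. Of 9 measured distal genes, 4 were higher and 3 lower in all 5 libraries. The antimicrobial lectin Reg3b was the most abundant gene lower in every library among those named, with 24439 to 37760 CPM in the selected cells and ratios of −0.63 to −1.31. Lypd8, with ratios of −0.79 to −1.58, and the ribosomal protein gene Rpl8, with −0.53 to −1.13, were also lower in every library.

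**Figure D4:**
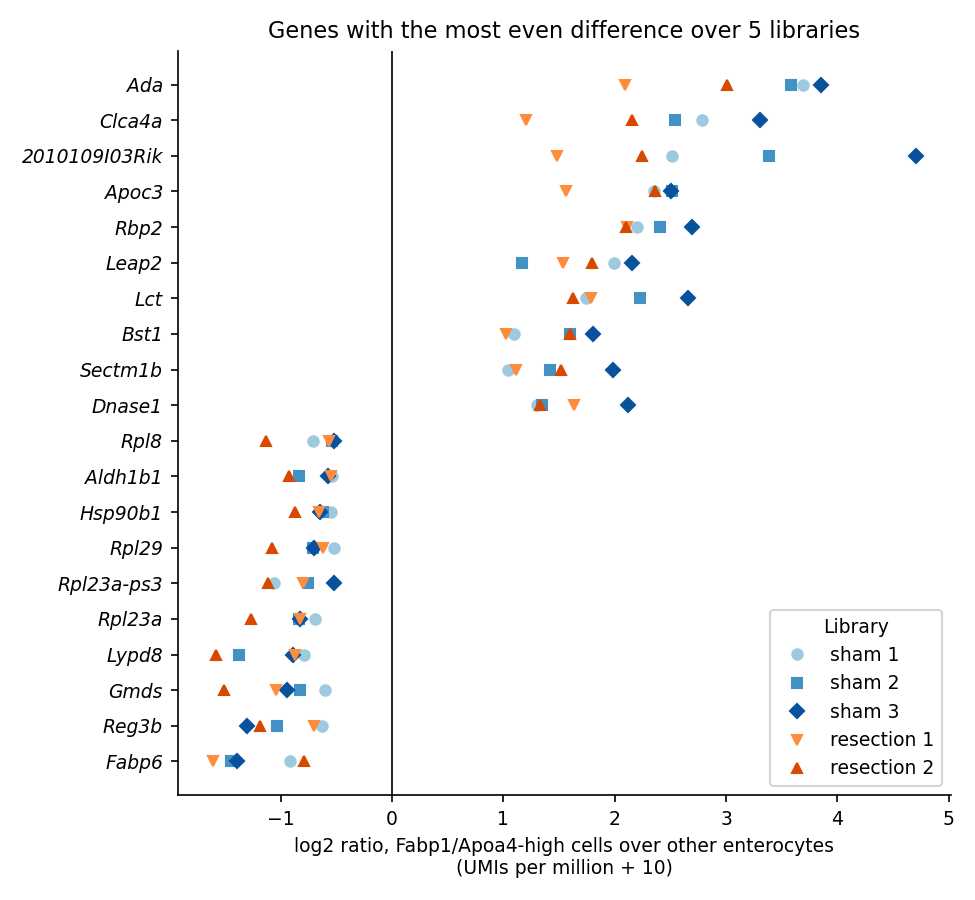
Log2 ratio of CPM between Fabp1/Apoa4-high cells and other enterocytes, 1 point per library, for genes named by rule. Ada lies between 2.09 and 3.86 and Fabp6 between −1.61 and −0.79, and each gene has the same sign in all 5 libraries.

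The summed balance of proximal against distal genes gave the same order within libraries. It is the log2 ratio of 22 proximal to 16 distal genes, without Fabp1 and Apoa4. It was 0.60, 1.83, 1.31, 2.27 and 1.61 in the Fabp1/Apoa4-high cells and −1.36, −0.59, −1.21, 0.46 and −0.36 in other enterocytes, in the order sham 1 to resection 2. Fabp6 carried much of the spread between libraries. Without it the balance was 2.51, 3.26, 3.20, 3.003 and 3.36 in the selected cells, with sham and resection overlapping, and 1.21, 1.85, 1.76, 1.88 and 2.11 in other enterocytes.

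Within Fabp1/Apoa4-high cells, resection was compared with sham on UMIs summed per library. No gene passed the test: 0 of 5631 genes (0%) reached an adjusted p of 0.05 with edgeR's quasi-likelihood test. Without adjustment 185 genes (3.29%) had p under 0.05, and DESeq2 called 5, namely Slc2a2, Cldn4, Car4, Clca4a and 2010109I03Rik. The sham sums held few cells, so 1 UMI was worth 7.58 CPM in sham 1, 1.48 in sham 2 and 5.79 in sham 3, against 0.108 and 0.0974 in resection 1 and 2. Differences below are given with their error and did not pass the test, whether or not the groups overlapped. In 505 genes (8.97%) both resection libraries lay above the sham range, and in 448 (7.96%) below it.

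Proximal genes lay above the sham range more often than below it. Of 19 tested, 11 were above and 0 below, against 8.97% and 7.96% of all genes. Their median log2 fold change was 0.84 against 0.01 over all genes. The selected cells also held more Fabp1 plus Apoa4 after resection, with medians of 1.62% and 1.11% of UMIs against 0.705% to 0.912% in sham. Of 12 measured proximal genes, 10 were higher in selected cells than in other enterocytes of every library. What part of the proximal difference follows from this was not tested. Slc2a2 had 0, 20.7 and 23.1 CPM in sham 1 to 3, and 188 and 87.1 CPM in resection 1 and 2, a log2 fold change of 2.88 ± 0.52 (SE, edgeR adjusted p = 0.305). The 0 UMIs of sham 1 allow up to 22.8 CPM. In set B the difference of log2(CPM + 10) was 1.61, and in set A the sham library held no UMI to set a fold against. Lct had 334, 289 and 243 CPM in sham and 1015 and 436 in resection, a change of 1.28 ± 0.37 (edgeR adjusted p = 0.993). Leap2 had 156 to 285 CPM in sham and 633 and 429 in resection, a difference of 1.17 ± 0.35. Apoc3 had a log2 fold change of 0.87 ± 0.36, and Rbp2, whose groups overlapped, had 0.18 ± 0.44.

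Among genes of sugar digestion and transport, 9 of 14 lay above the sham range and 0 below, against 8.97% and 7.96% of all genes. Besides Lct and Slc2a2 these included Sis, sucrase-isomaltase, with 523, 1199 and 1209 CPM in sham and 2079 and 1663 in resection. Mgam, maltase-glucoamylase, had 1198, 989 and 914 CPM in sham and 1813 and 1401 in resection. Slc5a1, the sodium-glucose cotransporter, had 1585, 1243 and 1088 CPM in sham and 2233 and 946 in resection, so its groups overlapped. Lipid genes, in contrast, had 4 above and 2 below of 21, with a median of 0.08. Apob had 1267, 1017 and 1169 CPM in sham and 1521 and 1282 in resection, and Mttp, the lipid transfer protein that loads it, overlapped between groups. Other genes named for lying above the sham range were Adh6a (1.39 ± 0.36), Ephx2 (1.11 ± 0.33), Cyp3a25 (0.92 ± 0.31), Cubn (0.90 ± 0.30) and Rab30 (1.13 ± 0.37).

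Genes below the sham range included Cldn4, a claudin of tight junctions, with 159, 53.2 and 110 CPM in sham and 11.8 and 18.1 in resection. Its log2 fold change was −2.67 ± 0.44 (edgeR adjusted p = 0.254). 2010109I03Rik had 235, 182 and 677 CPM in sham and 28.2 and 58.7 in resection, a change of −3.05 ± 0.60. Clca4a and Car4, a carbonic anhydrase, had changes of −1.76 ± 0.35 and −1.70 ± 0.34, each with an edgeR adjusted p of 0.305. Duoxa2, the maturation factor of the oxidase Duox2, had 273, 69.4 and 608 CPM in sham and 20.2 and 63.0 in resection. Its sham values spanned a wide range, and its lowest lay just above the higher resection value. Pmp22 (−1.70 ± 0.45), the actin-binding Pfn1 (−1.28 ± 0.35) and Ccdc71l (−1.25 ± 0.34) completed the genes named. Of 7 interferon-induced genes tested, 4 lay below the sham range and 0 above, and of 5 villus tip genes, 2 lay below and 0 above. Over all genes 7.96% lay below and 8.97% above. The median log2 fold change of the interferon genes was −0.61, beside −0.68 over the 10 tested in other enterocytes, where 1 lay below. The contrast within Fabp1/Apoa4-high cells did not hold the villus tip level equal. In sham 1 to 3, 18 of 24, 149 of 171 and 30 of 34 selected cells had at least 0.15% villus tip UMIs. In resection 1 and 2 these were 818 of 1612 and 1231 of 2112. Clca4a, 2010109I03Rik and Pmp22 were also higher in the selected cells than in other enterocytes of every library. How far this entered the fold changes was not tested.

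Within Fabp1/Apoa4-high cells the groups overlapped for Fabp6 and Slc10a2. For Fgf15 both resection libraries lay above the sham range, resection 2 by a narrow margin. Fabp6 had a log2 fold change of −0.73 ± 0.52 (edgeR adjusted p = 0.999), with differences of log2(CPM + 10) of −2.21 in set A and 0.02 in set B. Slc10a2 had 288, 275 and 411 CPM in sham and 298 and 171 in resection. Fgf15, the ileal hormone that restrains bile acid synthesis, had 30.3, 47.2 and 40.5 CPM in sham and 86.7 and 52.0 in resection. Its log2 fold change of 0.65 did not pass the test (edgeR adjusted p = 0.999). In sham 1 and sham 3 a single UMI was worth 7.58 and 5.79 CPM, so these levels rest on few UMIs. Of 12 distal genes tested, 2 lay above the sham range and 1 below, against 8.97% and 7.96% of all genes.

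**Figure D5:**
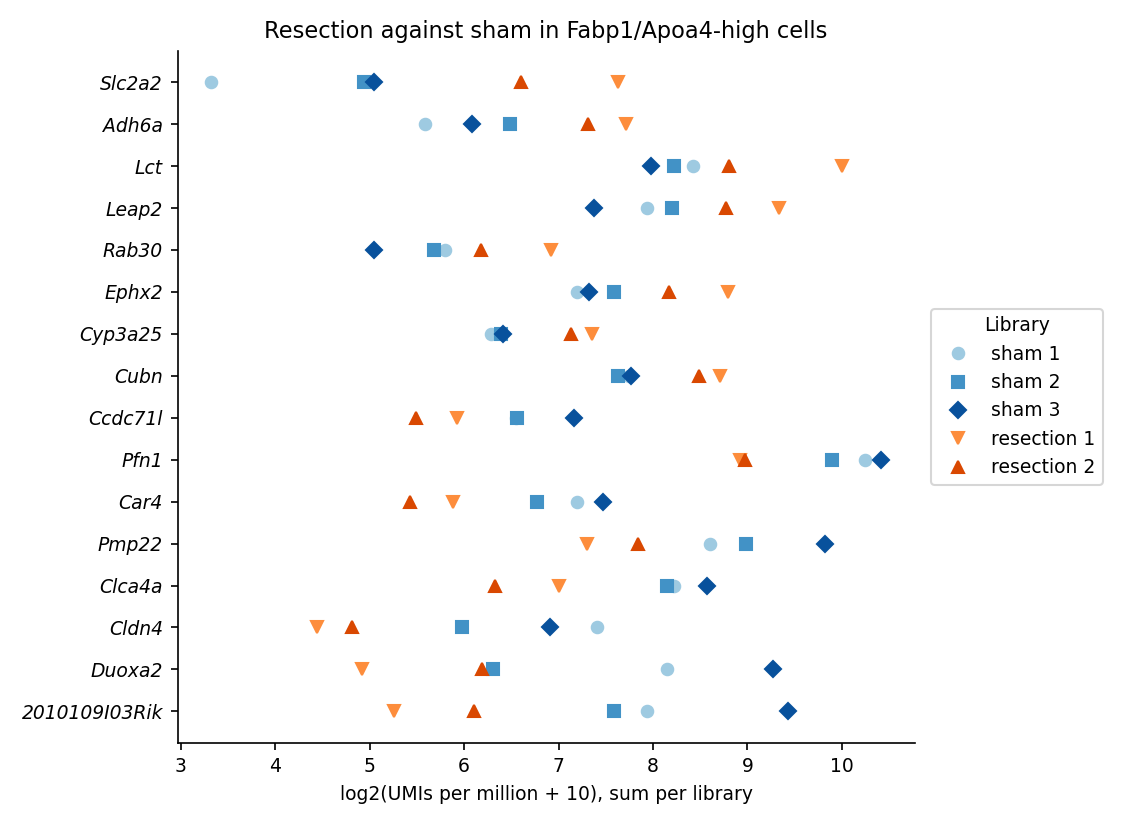
Level in the Fabp1/Apoa4-high cells of each library as log2 of CPM plus 10, 1 point per library, for the 8 genes above and the 8 below the sham range that were named by rule. Slc2a2 reaches 188 and 87.1 CPM in resection against at most 23.1 in sham, and Cldn4 lies at 11.8 and 18.1 against at least 53.2.

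The same contrast in other enterocytes called 0 of 10430 genes (0%) with edgeR, 197 (1.89%) at an unadjusted p under 0.05, and 9 with DESeq2. There both resection libraries lay above the sham range in 7.45% of genes and below it in 5.73%, together 13.2%. Proximal genes lay above in 9 of 20 cases and below in 2, with a median of 0.52. Genes of sugar digestion and transport lay above in 7 of 13 cases and below in 0. Their median was 0.58, beside 0.60 over 14 genes in the Fabp1/Apoa4-high cells. Sis, a general enterocyte gene, was tested only in the latter. The log2 fold change of Slc2a2 was 3.63 in other enterocytes, beside 2.88 in the Fabp1/Apoa4-high cells. Slc2a2, Cldn4 and 2010109I03Rik were called by DESeq2 in both classes, and Car4 and Clca4a only in the Fabp1/Apoa4-high cells.

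Whether the resection effect differed between the classes was tested as an interaction, with the library as a block. The classes were split by the rule itself, and where the split fell differed between the groups. Selected cells were 2.50% to 6.79% of enterocytes in sham, and 60.6% and 39.1% in resection 1 and 2. Median Fabp1 plus Apoa4 in other enterocytes was 0.0355% to 0.0396% of UMIs in sham, and 0.241% and 0.147% in resection. For a gene that varies with Fabp1 and Apoa4, the test cannot tell this shift from a different resection effect. The test called 8 of 10605 genes (0.0754%), 4 higher and 4 lower in Fabp1/Apoa4-high cells relative to other enterocytes, with 602 (5.68%) at an unadjusted p under 0.05. With the alternative RLE scaling 3 were higher and 6 lower. Ada, the tip gene, had an interaction of −1.46 ± 0.25 on the log2 scale (edgeR adjusted p = 2.27e-05): its log2 ratio over other enterocytes was 2.09 and 3.01 after resection and 3.58 or more in each sham library. Npl, a lyase of sialic acid, had −1.73 ± 0.37 (edgeR adjusted p = 0.0072). Duox2, an epithelial oxidase named because Npl and Slc28a2 averaged under 50 CPM in the selected cells, had −0.87 ± 0.24 and did not pass (edgeR adjusted p = 0.222). Adh6a, an alcohol dehydrogenase, had 1.20 ± 0.26 (edgeR adjusted p = 0.0073), with 37.9, 79.7 and 57.9 CPM in the selected sham cells and 199.8 and 149 in the resection cells. In other enterocytes Adh6a had 97.8, 108 and 142 CPM in sham and 149.8 and 142 in resection.

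Genes of lymphocytes and goblet cells were also among the 8. Gzma, granzyme A, had an interaction of 1.66 ± 0.27 (edgeR adjusted p = 1.14e-05), and Ccl5, a chemokine of cytotoxic T cells, had 1.04 ± 0.24 (edgeR adjusted p = 0.0299). Zg16, a goblet cell lectin, had 1.15 ± 0.20 (edgeR adjusted p = 5.22e-05). Without T cell-marked and goblet-marked droplets, a setting added after the data were seen, Gzma had 0.48 (edgeR adjusted p = 0.880) and Ccl5 0.15 (0.969). Zg16 had 1.07 (edgeR adjusted p = 0.00175), Ada −1.53 (1.88e-05) and Adh6a 1.23 (0.0085). The gene lists that mark these droplets hold Gzma, Ccl5 and Zg16 themselves, so lower values of these genes follow in part by construction. The Zg16 value depended on single libraries: it was 0.67 without sham 1 (edgeR adjusted p = 0.551), 0.73 without sham 3 (0.784), 0.96 without resection 1 (0.124) and 2.37 without sham 2. Ada had −1.03 without resection 1 (edgeR adjusted p = 0.335) and −0.23 after thinning each cell to 2000 UMIs (0.963). Adh6a did not pass without sham 1 (1.09), sham 3 (edgeR adjusted p = 0.404) or resection 1 (1.10), and had 1.82 without sham 2. Over the alternatives to this test, Gzma passed in 12 of 17, Ada in 13 and Zg16 in 9. The summed T cell list made up 0.011%, 0.036% and 0.014% of UMIs in the selected sham cells and 0.018% and 0.066% in the resection cells. The number of calls depended on the threshold that splits the classes: it was 0 with a threshold of 0.25% and 5 with 1%. It was 4 without sham 1, 2 without resection 1 and 14 without resection 2.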

How the data were processed

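Cells were profiled by droplet single-cell RNA sequencing with 10x Chromium 3′ v2 chemistry, per the labels. Each library has 1 matrix of whole-number UMI counts, deposited by the authors without normalization. Cell Ranger produced them, per the labels, and mm10 and GRCm38 are the builds in the submitters' processing notes. Barcodes and gene symbols are deposited as text labels and were not measured.

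Filtering for at least 500 genes and at most 20% mitochondrial UMIs left 18955 of 19404 cells. Groups came from the sample titles. UMIs were summed per library and class and tested with edgeR 4.0.16 (TMM, filterByExpr, quasi-likelihood test, two-sided, Benjamini-Hochberg adjustment, threshold 0.05) in R 4.3.3. DESeq2 1.42.0 was an alternative. Printed CPM are UMIs scaled to 1000000 per class sum without TMM, and fold changes come from edgeR. The 29 genes read by the rule were not tested. In other enterocytes and in the interaction, the 9 general enterocyte genes were not tested either. Doublets were scored by simulation (2 per cell). They stayed in, and removing 720 was an alternative. Intervals are exact 95% binomial intervals. The edgeR step was tested on simulated data. Other alternatives were RLE scaling, no filter on low counts, other thresholds, thinning to 2000 UMIs, leaving out each library, a set term and a replicate block.

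The genes named are the proximal and bile acid markers, the 8 genes per direction with the lowest p in the resection contrast (at least 50 CPM, resection outside the sham range), the 3 per direction with the lowest p in the interaction (at least 50 CPM on average in the selected cells), the 10 per direction with the most stable ratio between classes, and the 3 most abundant of each list. Other list genes named, and the called interaction genes beyond these, were chosen after their values were seen. The members, lists and sets were chosen with earlier results of these data known. The labels do not say that libraries came from separate animals, so p-values measure only the spread between libraries, which may be technical.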

Additional observations from a re-analysis of the deposited data

Results flagged for a closer look

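The interaction test of edgeR called 8 genes for a resection effect that differed between Fabp1/Apoa4-high cells and other enterocytes. For genes that vary with Fabp1 and Apoa4, it cannot separate this from the shift in where the classes were split. On the log2 scale the difference was 1.66 for Gzma, 1.15 for Zg16, 1.20 for Adh6a and 1.04 for Ccl5. It was −1.46 for Ada, −1.73 for Npl, −0.998 for Duoxa2 (edgeR adjusted p = 0.0398) and −1.98 for Slc28a2, a purine nucleoside transporter of the villus tip (edgeR adjusted p = 0.049). Slc28a2 had 144, 29.5 and 46.3 CPM in the selected cells of sham 1, 2 and 3, and 12.5 and 16.1 in those of resection 1 and 2. Without T cell-marked and goblet-marked droplets it had −1.93 (edgeR adjusted p = 0.201), Npl had −1.63 (0.0405) and Duoxa2 had −1.03 (0.0405). Of 17 alternatives to this test, Ada passed in 13, Gzma in 12, Npl and Zg16 in 9, Adh6a in 7, Ccl5 and Duoxa2 in 5 and Slc28a2 in 4, and each had an edgeR adjusted p of 0.989 or more in at least 1 of them. With 1 library left out, Gzma had 1.49 to 2.53 and passed each time, Ccl5 had 0.81 to 1.32 and passed only without sham 3, and Npl had −2.13 to −1.18 and did not pass without sham 2 or resection 1. Duoxa2 had −1.73 to −0.67 and passed only without sham 3, and Slc28a2 had −2.40 to −1.73 and passed in none of these 5 fits. Gzma and Ccl5 are T cell genes and Zg16 is a goblet cell gene. Each is in the lists that mark the droplets taken out, so that setting cannot measure the part of mixed droplets in their differences. That part was not tested.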

How the results depend on the processing

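The difference in the share of Fabp1/Apoa4-high cells, 33.6 percentage points, was 44.5 with a threshold of 0.25%, 22.3 with 1% and 25.2 with at most 10% mitochondrial UMIs. Leaving out 1 library gave 27.3 (without resection 1) to 40.0 (without resection 2). The difference in the Fabp6-high share, −16.6 points, ranged from −36.6 to 3.28 when 1 library was left out, with 3.28 without resection 1, and was 8.15 within set B. The cause was not tested. The median log2 ratio of Fabp6 between classes, −1.39, was −0.71 with a threshold of 0.25%. By construction it was smaller within Fabp6-high cells (−0.51) and within Fabp6-low cells (−0.39).

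In Fabp1/Apoa4-high cells the 0 calls of the resection contrast became 5 with DESeq2, 19 without the filter on low counts, 13 with at most 10% mitochondrial UMIs (where sham 1 kept 1 such cell) and 0 to 9 with 1 library left out (9 without sham 1, 8 without resection 1, 7 without resection 2). In other enterocytes the 0 calls became 9, 35 and 4 under the first 3 of these settings, 1 with the set as a term, and 0 to 1 with 1 library left out. The 8 interaction calls became 0 with a threshold of 0.25%, 5 with 1%, 3 with at most 10% mitochondrial UMIs, 2 with other enterocytes at 2% of the enterocyte list, 1 after thinning to 2000 UMIs, 5 without marked droplets, 3 in Fabp6-low cells only, and 2 to 14 with 1 library left out. Cause was not tested for any of these.

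Sham and resection libraries share the numbers 1 and 2, but the labels do not say that a number marks a shared animal or day. With the replicate block, 59 genes were called in Fabp1/Apoa4-high cells (10 higher, 49 lower) and 4 in other enterocytes. Deviations from the group means correlated at 0.47 between sham 1 and resection 1 and at 0.16 between sham 2 and resection 2 over 5631 genes. With 2 resection libraries the deviations mirror each other, so the crossed pairs gave −0.47 and −0.16.

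For single genes, 433 values kept their direction and side of the threshold, 71 lost a call, 42 gained one and 3 reversed: Rbp2 in the resection contrast without sham 1 (−0.16, with −0.16 to 0.64 over the libraries left out), Slc10a2 in Fabp6-high cells only (0.28) and the Zg16 interaction with at most 10% mitochondrial UMIs (−0.72). The 24 selected cells of sham 1 limit the precision of every sham mean.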
